A study of Mus musculus with 6 samples.

Results

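The genes described here encode 10 proteins that modify, fold, trim and crosslink collagen: the prolyl 4-hydroxylase alpha subunits *P4ha1* and *P4ha2*, the lysyl hydroxylases *Plod1*, *Plod2* and *Plod3*, the lysyl oxidases *Lox*, *Loxl1* and *Loxl2*, the chaperone gene *Serpinh1* and the propeptide-removing proteinase gene *Bmp1*. They were chosen by symbol, with earlier results of these data known, and make up 10 of the 53342 genes in the deposited table. All 10 passed the filter on low counts, which left 24534 genes for testing. RNA sequencing compared 3 WT and 3 MMP13KO samples of dental pulp from mice aged 3 months on a C57BL/6 background, so that each genotype had n = 3 and one age. The number of mice in a sample was not given. The MMP13KO mice carried a homozygous germline loss of *Mmp13*, the gene of a collagenase, so all cell types carried the loss, and neither genotype received a treatment. Male mice and incisor pulp are named in the methods, whereas the labels name molars, a tooth type that the MMP13KO titles leave out. Labels gave no batch or preparation date, so anything that differed in handling between the WT and MMP13KO libraries cannot be told apart from genotype.

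Fibrillar collagen is made as procollagen chains in the endoplasmic reticulum, where prolyl 4-hydroxylase stabilises the triple helix and the lysyl hydroxylases modify lysines that later serve in crosslinks. The chaperone HSP47, encoded by *Serpinh1*, binds the folded helix. Outside the cell *Bmp1* proteinase removes the C-propeptide so that fibrils can form, and lysyl oxidases convert lysines and hydroxylysines to the aldehydes from which crosslinks arise. Odontoblasts lining the pulp secrete type I collagen as predentin, the matrix that mineralises to dentin.

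*Plod2*, the lysyl hydroxylase of the collagen telopeptides, was the single gene of the 10 that rose, to 3.44 times its WT level. *Bmp1* fell 2.46-fold and *Loxl1* 2.32-fold, *Plod1*, *Plod3* and *Serpinh1* fell by less than 2-fold, and *P4ha1*, *P4ha2*, *Lox* and *Loxl2* did not pass the test. Changes over 2-fold at an adjusted p under 0.05 (edgeR quasi-likelihood test, Benjamini-Hochberg) were thus called in 3 of the 10 genes, against 30.1% of all genes tested. *Plod2* was the gene called higher at this limit and *Bmp1* and *Loxl1* those called lower, where 20.4% of all genes were called higher and 9.68% lower. At any fold 6 of the 10 were called, 1 higher and 5 lower, against 51.6% of all genes, of which 27.3% were higher and 24.3% lower. In 7 of the 10 the values of the genotypes did not overlap, 6 of them being lower in every MMP13KO library, where 60.9% of all genes did not overlap and 29.1% were lower in every MMP13KO library. The median log2 fold change of the 10 was -0.52, and that of all genes tested was 0.10. Counts in either direction thus stood near the background of the table. In the lower direction 5 of 10 at any fold stood above the 24.3% of all genes. The 2 of 10 lower over 2-fold were too few to set apart from the 9.68% of all genes. The GC correction left 1 of the 10 higher and 1 lower at any fold. Of all 24534 genes 6515 were then higher and 2646 lower.

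Library totals ranged from 28442936 to 29980236 counts in WT and from 21561420 to 26547121 in MMP13KO, and a floor of 3 counts stood at most at 0.139 CPM, the unit of counts relative to the library's total. *Mmp13* fell from 960 ± 127 to 34 ± 27.6 normalised counts (SD over 3 libraries each), which gave -4.96 as log2 fold change (adjusted p = 7.67e-05, edgeR). Transcripts of the mouse major satellite took 5.87, 10.3 and 46.1% of the counts in MMP13KO libraries 1, 2 and 6 and at most 0.0445% in WT. Summed skeletal muscle markers ranged from 53437 to 63926 CPM in WT and from 9575 to 23431 in MMP13KO, odontoblast markers (10 genes, 3 higher and 3 lower) from 37451 to 45367 and from 11359 to 14236, fibroblast and mesenchyme markers (10 genes, 3 higher and 5 lower) from 15472 to 23842 and from 7363 to 9934, and blood and neutrophil markers (10 of 10 higher) from 601 to 1031 and from 1951 to 4122. Immune markers (8 genes, 6 higher and 0 lower) summed to 108 to 119 CPM in WT and 303 to 584 in MMP13KO. Enamel organ and epithelium markers (6 genes, 0 higher and 2 lower) summed to 4528 to 5851 and 4426 to 5757. Their sums overlapped between the genotypes, as did those of the osteoblast, endothelium and Schwann cell markers. *Col1a1* and *Col3a1* carried the odontoblast and fibroblast sums. Without them the odontoblast markers summed to 1892 to 3524 CPM in WT and 2795 to 4050.0 in MMP13KO, and the fibroblast markers to 1459 to 1645 and 1584 to 2255, so that the genotypes overlapped in both. Single odontoblast markers differed. *Phex*, called higher, had 4257, 1932 and 2253 normalised counts in WT samples 2, 4 and 5. In MMP13KO samples 1, 2 and 6 it had 9523, 10597 and 7007. *Dspp* and *Dkk1* were also called higher, and *Nes*, *Col1a1* and *Wnt10a* lower. Reads over odorant and vomeronasal receptor genes, taken as background, made up 308, 356 and 1197 CPM of MMP13KO libraries 1, 2 and 6, against 17.8 to 20.8 CPM of the WT libraries. No gene of the marker lists was at 0 in any library. Their part in the values below was not tested, and in bulk pulp fewer cells of a type and less RNA per cell cannot be told apart.

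Across 10561 abundant protein-coding genes the log2 fold change fell with the GC content of the transcript, with a Spearman rho of -0.71, genes sharing the same 6 libraries. Over the 10 enzyme genes rho was -0.95, as a description. The 3 lysyl hydroxylase genes illustrate how far paralogs of one function lie apart in base composition. Their last 120 coding bases before the stop codon are given here, each within 1 exon, from GRCm38 (mm10) with the GENCODE M21 annotation, 5′ to 3′ on the coding strand, with G and C in capitals. They lie at chr4:147910722-147910841 on the minus strand for *Plod1*, at chr9:92607108-92607227 on the plus strand for *Plod2* and at chr5:136996139-136996258 on the plus strand for *Plod3*.
Plod1: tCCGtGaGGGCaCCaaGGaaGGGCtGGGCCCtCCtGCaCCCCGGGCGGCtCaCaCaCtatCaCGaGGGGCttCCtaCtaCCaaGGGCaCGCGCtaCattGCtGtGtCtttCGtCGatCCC
Plod2: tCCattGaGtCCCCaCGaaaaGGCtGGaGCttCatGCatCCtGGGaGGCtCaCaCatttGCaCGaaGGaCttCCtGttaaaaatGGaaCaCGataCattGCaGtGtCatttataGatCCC
Plod3: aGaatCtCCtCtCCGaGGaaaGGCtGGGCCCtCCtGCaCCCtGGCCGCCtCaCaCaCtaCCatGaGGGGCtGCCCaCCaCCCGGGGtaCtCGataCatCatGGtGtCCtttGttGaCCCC
G and C made up 76 of 120 bases in *Plod1*, 56 in *Plod2* and 74 in *Plod3*. *Plod1* shared 86 of 120 aligned bases with *Plod2* and 87 with *Plod3*, and *Plod2* and *Plod3* shared 75. Over the whole coding sequence GC was 56.5% in *Plod1*, 44.2% in *Plod2* and 57.2% in *Plod3*, and at the third base of codons 72.9, 45.1 and 69.2%. Each gene below is therefore given with its log2 fold change after a correction of every library for transcript GC content, and with the median of the abundant protein-coding genes within 1 percentage point of its own GC. The correction brought rho over the abundant genes to -0.019, moved the median of all genes up by 0.18 on the log2 scale, and left 37.3% of all genes called at any fold and 20.1% over 2-fold.

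**Figure D1:**
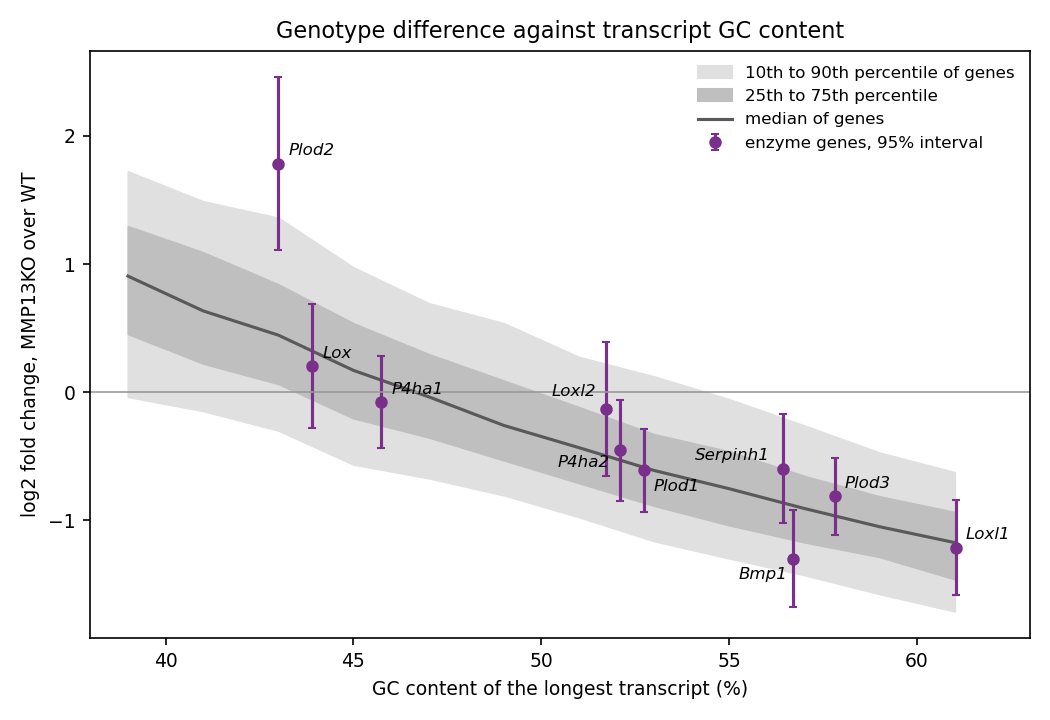
The x axis is the GC content of the longest transcript in percent and the y axis the log2 fold change of MMP13KO over WT. The line is the median of protein-coding genes with a mean log2 CPM above 3 in bins of GC content, the bands span their percentiles as labelled, and points are the 10 enzyme genes with 95% intervals from edgeR. The median falls with GC content, *Plod2* at 43.0% GC lies above the wider band, and *Loxl1* at 61.0% GC lies on the median line.

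*Plod2* (chr9:92542223-92608428, plus strand, GRCm38) encodes the lysyl hydroxylase that acts on the ends of the collagen chain, outside the triple helix. It had normalised counts of 2108, 982 and 902 in WT samples 2, 4 and 5 and 4819.9, 4953 and 3972 in MMP13KO samples 1, 2 and 6. Every MMP13KO library lay above every WT library, and WT sample 2 lay above the other 2 WT samples by more than the range of those samples. Among the WT libraries, sample 2 was also highest in every odontoblast marker but *Dmp1* and *Col1a1*. Of the enamel organ markers it was highest in *Amelx*, *Ambn* and *Enam* and lowest in *Krt14*, *Krt5* and *Epcam*. Whether this bears on *Plod2* was not tested. The log2 fold change was 1.78 with an SE of 0.30 and a 95% interval of 1.11 to 2.46 (adjusted p = 0.0010, edgeR). It was 2.21 without WT sample 2 and 1.88 without MMP13KO sample 6, the library richest in satellite transcripts. After the GC correction it was 1.42 (adjusted p = 0.0050, edgeR). The 846 genes of similar GC had a median of 0.44, and *Plod2* stood at their 96.2 percentile. Exons of *Gm38391*, an uncharacterised gene on the opposite strand, covered 346 bases of the 5392 exonic bases of *Plod2*. *Gm38391* had 251 to 374 counts in WT and 84.2 to 169 in MMP13KO, so its counts and those of *Plod2* moved in opposite directions. *Plod2* lies on the chromosome that carries *Mmp13*, 85.3 Mb from it.

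*Plod1* (chr4:147909753-147936767, minus strand) and *Plod3* (chr5:136987019-136996648, plus strand) encode lysyl hydroxylases of the triple-helical region, and the *Plod3* product also transfers sugars to hydroxylysine. *Plod1* had 1471, 1720.2 and 1576 normalised counts in WT and 999, 1194 and 929.7 in MMP13KO, without overlap. Its log2 fold change was -0.61 with an SE of 0.15 (adjusted p = 0.0062, edgeR), close to the median of -0.60 for genes of similar GC, and -0.02 after the GC correction. *Plod3* had 1565, 1867 and 1608 normalised counts in WT and 950.0, 999 and 922 in MMP13KO, again without overlap. Its log2 fold change was -0.81 with an SE of 0.13 (adjusted p = 0.0009, edgeR), against a median of -0.98 for genes of similar GC, and was 0.17 (adjusted p = 0.158, edgeR) after the GC correction. Both genes thus lost their call under the correction, and also with total counts as the only scaling (adjusted p = 0.24 for *Plod1* and 0.0816 for *Plod3*, edgeR). *Plod3* shares 538 exonic bases with *Znhit1* and a microRNA gene, whose reads may be split between them.

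Per length *Plod2* was the highest of the lysyl hydroxylases in all 3 MMP13KO libraries and in WT sample 2, and the lowest in WT samples 4 and 5. *Plod2* held 40.9, 21.4 and 22.1% of the summed level of the 3 genes, in counts per kilobase, in WT samples 2, 4 and 5, and 71.4, 69.8 and 68.3% in MMP13KO samples 1, 2 and 6. *Plod3* held 36.3 to 48.6% in WT and 16.8 to 18.9% in MMP13KO, and *Plod1* 22.8 to 30.8% and 11.8 to 13.4%. After the GC correction the share of *Plod2* ranged from 29.9 to 48.3% in WT and from 59.5 to 61.3% in MMP13KO. The shares of *Plod2* therefore did not overlap on either scale, with the lowest MMP13KO share above the highest WT share.

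*P4ha1* (chr10:59323296-59373304, plus strand) and *P4ha2* (chr11:54100095-54131665, plus strand) encode catalytic subunits of collagen prolyl 4-hydroxylase. *P4ha1* had 1562, 1525 and 1672 normalised counts in WT and 1561, 1746 and 1194 in MMP13KO. The genotypes overlapped, MMP13KO samples 2 and 6 being the highest and the lowest of all 6. The log2 fold change of *P4ha1* was -0.08 with a 95% interval of -0.44 to 0.28 (adjusted p = 0.709, edgeR), and -0.16 after the GC correction, against a median of 0.074 for genes of similar GC. *P4ha2* had 2573, 2050.3 and 1760.1 normalised counts in WT and 1714, 1638 and 1307 in MMP13KO. Every MMP13KO library lay below every WT library, the gap between WT sample 5 and MMP13KO sample 1 being small. Its log2 fold change was -0.45 with a 95% interval of -0.85 to -0.06 and an adjusted p of 0.0551 (edgeR), which missed the threshold. Of 17 refits 5 gave an adjusted p below 0.05 in this direction, among them DESeq2 at 0.0376 and the fits without WT sample 5 at 0.0335 and without MMP13KO sample 1 at 0.0455 (edgeR), whereas the GC correction gave 0.068 on the log2 scale. Genes of similar GC had a median of -0.54.

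*Lox*, *Loxl1* and *Loxl2* encode secreted amine oxidases, *Loxl1* being known above all for elastic fibres and *Loxl2* for collagen type IV of basement membranes. *Lox* had 6566, 4958 and 3956 normalised counts in WT and 6218, 6759.9 and 4845 in MMP13KO. The genotypes overlapped widely, WT sample 2 lying above 2 of the 3 MMP13KO samples. Its log2 fold change was 0.20 with a 95% interval of -0.28 to 0.69 (adjusted p = 0.458, edgeR), against a median of 0.33 for genes of similar GC, and -0.083 (adjusted p = 0.719) after the GC correction. *Loxl2* (chr14:69609068-69695834, plus strand) had 4006, 5515 and 5354 normalised counts in WT and 3067, 5579 and 4969.7 in MMP13KO. MMP13KO sample 2 was the highest of all 6 libraries and MMP13KO sample 1 the lowest. Its log2 fold change was -0.13 with a 95% interval of -0.65 to 0.39 (adjusted p = 0.674, edgeR), and 0.38 (adjusted p = 0.220) after the GC correction. Genes of similar GC had a median of -0.51 without correction. An antisense gene and a microRNA gene share 308 exonic bases with *Loxl2*, and the antisense *Gm27177* was also highest in MMP13KO sample 2, at 901 counts.

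*Loxl1* (chr9:58287738-58313186, minus strand) was the lysyl oxidase gene that fell. It had 1295, 1483 and 1266 normalised counts in WT and 458, 641 and 649.7 in MMP13KO. Its WT libraries all lay well above its MMP13KO libraries, without overlap. The log2 fold change was -1.21 with an SE of 0.17 and a 95% interval of -1.58 to -0.84 (adjusted p = 0.0004, edgeR). *Loxl1* had the highest GC content of the 10 genes, 61.0%, and 284 genes of similar GC had a median log2 fold change of -1.18. After the GC correction its value was -0.01 with a 95% interval of -0.35 to 0.33 (adjusted p = 0.962, edgeR), so the call was lost. *Loxl1* lies 51.0 Mb from *Mmp13* on the same chromosome.

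*Serpinh1* (chr7:99345376-99353239, minus strand) was the most abundant of the 10 genes per length in both genotypes. It had 19219.6, 20089 and 21229 normalised counts in WT and 13710.0, 15015 and 11311 in MMP13KO. All MMP13KO values lay below all WT values. The log2 fold change was -0.60 with an SE of 0.19 (adjusted p = 0.0243, edgeR), and the call was kept in 10 of 17 refits. Among others it was lost without WT sample 4 (adjusted p = 0.0658), WT sample 5 (0.0806) or MMP13KO sample 1 (0.0574), at log2 fold changes of -0.64, -0.63 and -0.68, and with total counts as the only scaling (0.36). Genes of similar GC had a median of -0.86, and the GC correction gave 0.27 (adjusted p = 0.129, edgeR).

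*Bmp1* (chr14:70474558-70520234, minus strand), whose product cleaves the C-propeptide of fibrillar procollagens and also activates lysyl oxidase, had 9575, 10815 and 9320.0 normalised counts in WT and 3779.8, 4546 and 3765 in MMP13KO. The lowest WT library was more than 2-fold above the highest MMP13KO library. Its log2 fold change was -1.30 with an SE of 0.17 and a 95% interval of -1.67 to -0.92 (adjusted p = 0.0003, edgeR). The 961 genes of similar GC had a median of -0.89, and *Bmp1* stood at their 14.8 percentile. After the GC correction it was -0.40 with a 95% interval of -0.66 to -0.14 (adjusted p = 0.0271, edgeR), still lower but no longer over 2-fold. *Plod2* and *Bmp1* passed the test in all 17 refits with other scaling, filters, corrections, tools or 1 sample left out, and the remaining 8 genes each missed it in at least 1 refit. In a test against a 2-fold change itself *Plod2* passed (adjusted p = 0.0298, edgeR) and *Bmp1* did not (adjusted p = 0.0933).

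**Figure D2:**
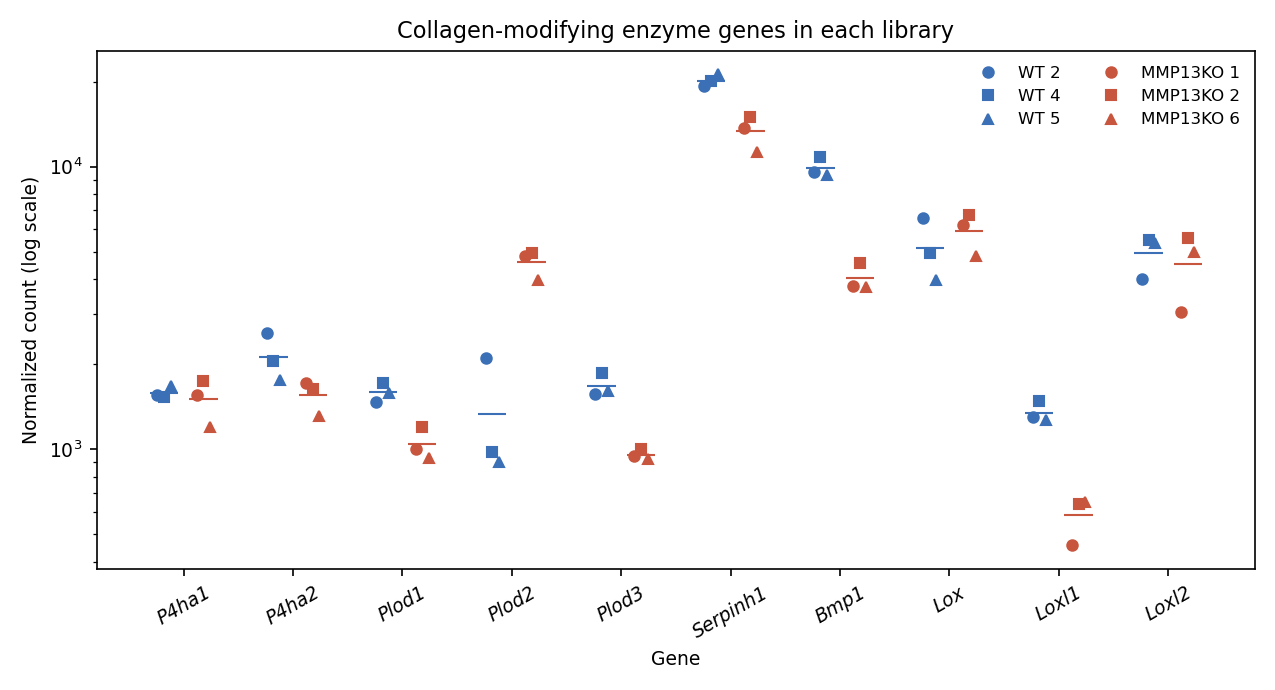
Normalised counts of each enzyme gene are plotted on a log y axis, with 1 point for each of the 3 WT (blue) and 3 MMP13KO (red) libraries and a line at each group's mean, the genes being arranged along the x axis. The MMP13KO points of *Plod2* lie between 3972 and 4953, above all WT points, and those of *Bmp1* between 3765 and 4546, below all WT points.

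**Figure D3:**
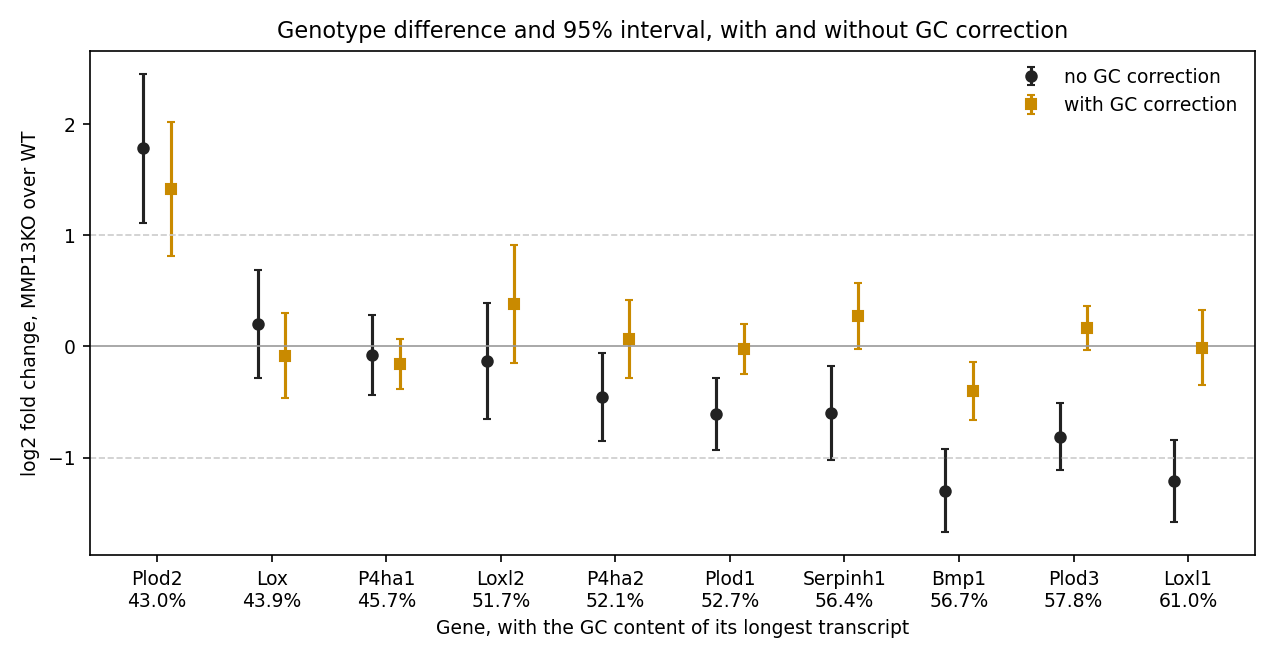
The y axis is the log2 fold change of MMP13KO over WT of each of the 10 genes, ordered along the x axis by transcript GC content, with 95% intervals from edgeR without (black) and with (yellow) the GC correction, and dashed lines at 2-fold. Without correction the values run from -1.30 for *Bmp1* to 1.78 for *Plod2*, and with it *Plod2* at 1.42 and *Bmp1* at -0.40 are the genes that passed the test.

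Levels per length, in CPM per kilobase of exon with TMM-scaled totals, gave the order of the 10 genes. The length was the union of all annotated exons of a gene, and the order depends on this choice. It was 6239 bases for *P4ha2* and 6765 for *Plod1*, whose longest transcripts have 3060 and 4097. For *Loxl1* both were 3297. *Serpinh1* stood first at 305 ± 15.2 in WT and 202 ± 28.4 in MMP13KO (SD, n = 3), far above the other genes. In WT *Bmp1* at 41.2 ± 3.33, *Lox* at 39.9 ± 10.2 and *Loxl2* at 33.9 ± 5.66 followed. *Loxl1*, *P4ha1*, *Plod3* and *P4ha2* lay between 12.6 and 15.1, and *Plod2* at 9.10 ± 4.62 and *Plod1* at 8.67 ± 0.683 came last, *Plod2* ranging over the samples from 6.17 to 14.4. Neighbours in this order had overlapping ranges over the WT samples, except *Serpinh1* with *Bmp1* and *Loxl2* with *Loxl1*. In MMP13KO *Plod2* at 31.4 ± 3.64 had moved to place 3, behind *Lox* at 45.9 ± 7.62 and beside *Loxl2* at 31.0 ± 8.95, while *Bmp1* at 16.8 ± 1.86 came after *Loxl2*, and *Loxl1* at 6.53 ± 1.21 was last but for *Plod1*. Of neighbours in the MMP13KO order, *Plod2* with *Loxl2*, *P4ha2* with *Plod3* and *Loxl1* with *Plod1* had overlapping ranges over the samples.

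The fibrillar collagens, substrates of these enzymes, were lower as a group. All 9 fibrillar collagen genes tested were lower in MMP13KO, 8 of them over 2-fold, with a median log2 fold change of -1.40. *Col1a1*, the alpha-1 chain of type I collagen, had a log2 fold change of -2.16, *Col1a2* of -1.26, *Col3a1* of -1.58, *Col5a1* of -1.66, *Col5a2* of -1.21 and *Col5a3* of -2.13. Of the 9, 6 passed the test after the GC correction and were lower, with a median of -0.73 and -1.11 for *Col1a1*, whereas *Col1a2* did not pass.

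Ratios within a library need no scaling between libraries, and each enzyme gene was therefore set against *Col1a1* per kilobase. *Plod2* stood at 0.226, 0.105 and 0.114% of *Col1a1* in WT samples 2, 4 and 5 and at 2.73, 2.18 and 2.08% in MMP13KO samples 1, 2 and 6, a mean difference of 4.06 on the log2 scale. *Bmp1* stood at 0.625, 0.700 and 0.719% in WT and 1.30, 1.22 and 1.2% in MMP13KO, a difference of 0.87, the smallest of the 10. *Serpinh1* stood at 4.55 to 5.95% in WT and 13.1 to 17.2% in MMP13KO. In all 10 genes the ratio was higher in every MMP13KO library than in every WT library, also after the GC correction and after subtraction of background reads. The same held for 96.2% of all genes tested, and for 86.2% after the GC correction, *Col1a1* itself standing at the 0.236 percentile of all log2 fold changes, so the direction of these ratios is no result about the enzymes and only their sizes differ between them. The GC correction gave differences from 0.71 for *Bmp1* to 2.61 for *Plod2*. Exact two-sided permutation tests cannot go below p = 0.1 with 3 libraries a genotype, and the value was 0.1 for each of the 10, or 0.115 after Benjamini-Hochberg adjustment over 15 ratios.

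**Figure D4:**
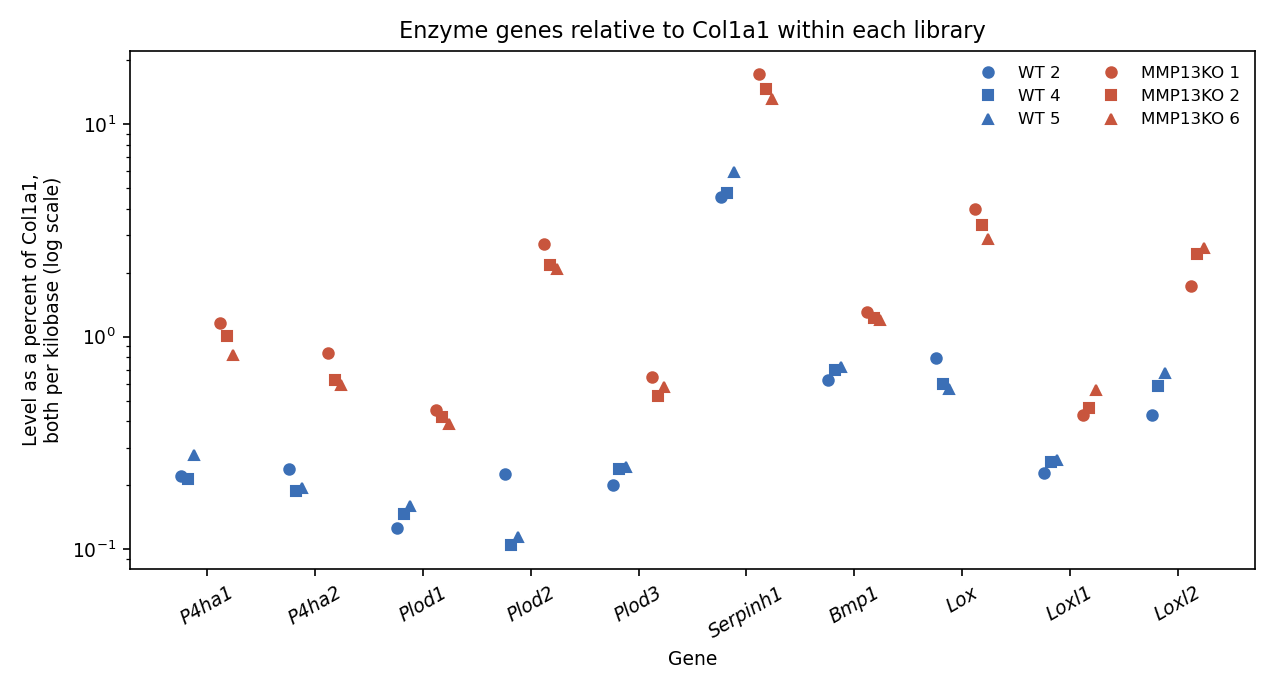
Each of the 10 enzyme genes is plotted as a percentage of *Col1a1*, both per kilobase of exon, on a log axis, with 1 point for each library. Every MMP13KO point lies above every WT point of the same gene, as it did for 96.2% of all genes tested, and *Plod2* differs most among the 10, from at most 0.226% in WT to at least 2.08% in MMP13KO.

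Ratios between the enzymes themselves were less uniform. *Plod2* relative to *Plod1* was 1.80, 0.716 and 0.718 in WT and 6.05, 5.20 and 5.36 in MMP13KO, a difference of 2.50 on the log2 scale and of 1.53 after the GC correction, without overlap in either (exact two-sided permutation p = 0.1, adjusted 0.115 and 0.125). *Loxl1* relative to *Lox* was 0.286, 0.434 and 0.464 in WT and 0.107, 0.138 and 0.195 in MMP13KO, a difference of -1.44, but 0.033 after the GC correction (exact two-sided permutation p = 0.8). *Plod3* relative to *Plod1* was 1.59, 1.62 and 1.53 in WT and 1.42, 1.25 and 1.48 in MMP13KO, a difference of -0.19 that turned to 0.20 after the GC correction. The ratios of *P4ha1* to *P4ha2* and of *Loxl2* to *Lox* overlapped between the genotypes.

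Other genes of procollagen hydroxylation, folding, export, trimming and crosslinking were counted by list, 37 genes in all, of which 5 were higher, 15 lower and 17 neither at an adjusted p under 0.05 (edgeR), with a median log2 fold change of -0.34. With the GC correction 8 were higher and 3 lower, with a median of 0.16. Of all 24534 genes tested 6515 were then higher and 2646 lower, with a median of 0.29. Both other prolyl 4-hydroxylase genes of the lists were tested. *P4hb*, the beta subunit, had a log2 fold change of 0.09 (adjusted p = 0.691, edgeR), and 0.76 (adjusted p = 0.0029) after the GC correction, and *P4ha3*, a further alpha subunit, one of -0.90, and -0.14 (adjusted p = 0.502) after it. In the prolyl 3-hydroxylase complex 5 of 6 genes were lower. With the GC correction (edgeR) 0 were lower and 1 was higher, with 1 lower at an unadjusted p under 0.05. Its largest changes were those of *P3h3* at -1.26 and *P3h2* at -1.09. Of 2 collagen galactosyltransferase genes 1 was lower, *Colgalt1* at -0.48, and its value was 0.24 (adjusted p = 0.115, edgeR) after the GC correction.

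Among 9 other endoplasmic reticulum chaperones and isomerases that act on procollagen 5 were higher and 1 lower, with a list median of 0.66. After the GC correction 5 were higher and 0 lower, with a median of 0.50, *Canx* having lost its call and *Fkbp9* gained one. *Fkbp7*, a peptidyl-prolyl isomerase, rose from 83.5 ± 16.3 to 499 ± 46.0 normalised counts (SD over 3 libraries each), by 2.58 on the log2 scale and by 2.08 after the GC correction. *Fkbp14*, an isomerase of collagen folding, rose from 240.2 to 437 normalised counts over the WT libraries to 747 to 1046 over the MMP13KO libraries, by 1.51 on the log2 scale and by 1.17 after the correction. *Fkbp10*, which binds lysyl hydroxylase 2, the product of *Plod2*, fell by 0.79 on the log2 scale, and its value was 0.15 after the GC correction. Transcripts of *Fkbp7* and *Fkbp14* have 42.0 and 43.4% GC, near the 43.0% of *Plod2*, and that of *Fkbp10* has 57.4%, near the 56.4% of *Serpinh1*. Neither *Fkbp10* (adjusted p = 0.291, edgeR) nor *Serpinh1* passed the test after the GC correction.

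In the other lists most calls were lower. Of 9 procollagen export genes 3 were lower, among them *Creb3l1*, a transcription factor of the secretory pathway, at -2.04 and *Tmem38b*, a cation channel of the endoplasmic reticulum, at -0.47. Both remained lower after the GC correction, at -0.94 and -1.04. Of 7 genes for propeptide removal besides *Bmp1* 3 were lower, led by *Adamts14* at -0.72 and *Adamts2* at -0.70, the N-propeptidases, and after the GC correction (edgeR) 0 passed, with 2 higher at an unadjusted p under 0.05. Of the other 2 lysyl oxidases *Loxl4* was lower at -0.80, and at 0.079 (adjusted p = 0.712, edgeR) after the GC correction. Of 8 elastic fibre and matrix partners 1 was higher and 3 lower. *Postn*, a matricellular protein that assists *Bmp1* in activating lysyl oxidase, rose from 14656 ± 1611 to 95899 ± 18328 normalised counts, by 2.71 on the log2 scale and by 1.70 after the GC correction, while *Fmod* (-1.13) and *Eln* (-1.04), genes of fibromodulin and elastin, fell. The GC correction gave -0.46 (adjusted p = 0.0242, edgeR) for *Fmod* and 0.019 (adjusted p = 0.897) for *Eln*, whose call was lost.

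*P4ha1*, *P4ha2*, *Plod2* and *Lox* are textbook targets of hypoxia-inducible factor. Of 15 other hypoxia-induced genes 0 were higher and 7 lower (edgeR; 1 was higher at an unadjusted p under 0.05, and 0 with DESeq2 or limma), with a median log2 fold change of -0.43, and after the GC correction 0 were higher and 5 lower, with 3 higher at an unadjusted p under 0.05. *Vegfa*, the endothelial growth factor gene, had the largest difference at -1.67, and -1.27 after the correction, followed by *Egln1*, an oxygen-sensing prolyl hydroxylase, at -1.43. The part of hypoxia in the level of *Plod2* was not tested.

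**Figure D5:**
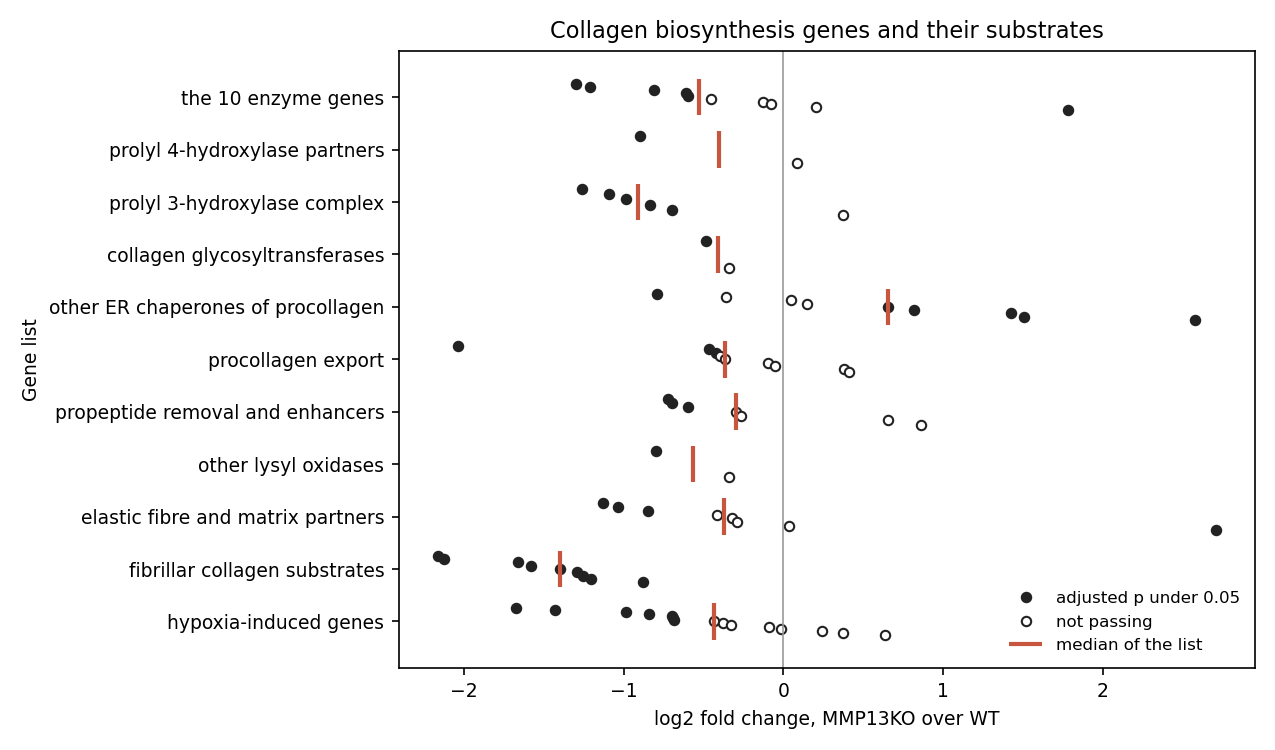
Each point is the log2 fold change, MMP13KO over WT, on the x axis of one gene of the list named on the y axis, filled where the adjusted p (edgeR) was under 0.05, with a red line at the list median. All 9 fibrillar collagen genes lie below 0, with a median of -1.40, and the list of other endoplasmic reticulum chaperones has its median above 0, at 0.66.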

How the data were processed

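Dental pulp RNA of 3 WT (replicates 2, 4 and 5) and 3 MMP13KO samples (1, 2 and 6) was grouped by genotype label. The authors sequenced paired reads of 150 bases and obtained estimated counts per gene in Strand NGS version 4, with the build given as mm10 in the submitters' processing notes. The aligner, annotation and strand setting are not given in the sources used here. The deposited normalized log2 values were made by the authors with DESeq scaling and centring on each gene's median, and served as an alternative only.

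Rounding of the estimated counts came before the test by edgeR 4.0.16 under R 4.3.3 (TMM factors, edgeR's filter on low counts, quasi-likelihood test without covariates, Benjamini-Hochberg adjustment over 24534 genes). Called genes had an adjusted p under 0.05. Normalised counts are counts over the TMM-scaled library size, brought to the mean library. SD measures the spread between 3 samples of a genotype. The edgeR p-values set the difference between the genotypes against the variation between samples, estimated with information from all genes tested. Pairs of libraries differed by a chi-square of at least 25.6 per degree of freedom, so none was a duplicate and counting error was small beside the spread. Positions, lengths and GC content came from GENCODE M21 on GRCm38, matched by identifier for 99.8% of genes. The GC correction was a loess fit per library on GC content (span 0.4), which entered the test as offsets. It fitted the deviation of log2 CPM from each gene's mean over the libraries, for genes of any type averaging over 3 in log2 CPM. The background rate was taken per exon kilobase over 1454 odorant and vomeronasal receptor genes. Ratios used a pseudocount of 0.5 counts. The main edgeR fit and the GC-corrected edgeR fit were tested on simulated data.

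All 10 enzyme genes are named, with *Mmp13*, the main substrates and, in each list, up to 2 genes in each direction with the largest change among those called. *P4hb*, *Canx*, *Fkbp9* and *Gm38391* with *Gm27177* and *Znhit1* were named after their values were seen. The same holds for the single odontoblast and enamel organ markers. The enzyme genes and the lists were chosen with earlier results of these data known. Alternatives were RLE and upper-quartile factors, total counts, TMM without satellite and the 10 most abundant genes, a minimum of 10 counts, no filter, DESeq2 1.42.0, limma 3.58.1 on the deposited log2 values, an adjusted p under 0.01, a test against 2-fold, the GC and background corrections, and each sample left out.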

Additional observations from a re-analysis of the deposited data

How the results depend on the processing

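Enzyme genes called over 2-fold numbered 3, and 1 under the GC correction, under background subtraction with the GC correction and in the test against a 2-fold change. Those called at any fold numbered 6, and 3 with total counts, 2 with the GC correction and 2 with both corrections. All genes called over 2-fold numbered 7381, and 4666 with a minimum of 10 counts, 14325 with no filter, 3617 with both corrections and 3047 in the test against 2-fold. Genes of all pathway lists, the 69 genes with collagen substrates, matrix partners and hypoxia-induced genes, called at any fold numbered 40, and 23 with total counts, 24 with the GC correction and 26 with both. Leaving out any one sample kept these 4 counts within 1.5 times. Of all genes called over 2-fold 67.8% were higher, against 81.4% with upper-quartile factors, 77.2% with total counts, 88.3% with the GC correction, 79.7% with both corrections and 78.6% with no filter. In the same order these settings shifted the median over all genes by 0.21, 0.11, 0.18, 0.045 and 1.2 (log2).

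Log2 fold changes turned direction in these cases. The GC correction gave 0.068 for *P4ha2*, 0.17 for *Plod3*, -0.083 for *Lox*, 0.38 for *Loxl2* and 0.27 for *Serpinh1*, and with background subtraction 0.094, 0.19, -0.039, 0.43 and 0.32, as well as 0.011 for *Loxl1*. *P4ha1* was at 0.12 with upper-quartile factors, 0.062 with total counts, 0.043 with a minimum of 10 counts, 0.065 with background subtraction, and from -0.26 to 0.063 with 1 sample left out, the latter without MMP13KO sample 6. *Loxl2* was at 0.094 with upper-quartile factors, 0.045 with background subtraction and 0.027 without MMP13KO sample 1, and was lowest at -0.37 without MMP13KO sample 2, and *Lox* ranged from -0.030 without WT sample 5 to 0.34 without WT sample 2. Differences between the genotypes in log2 ratio, MMP13KO minus WT, turned as well under the GC correction. They were -0.25 for *P4ha1* to *P4ha2*, 0.20 for *Plod3* to *Plod1*, 0.033 for *Loxl1* to *Lox* and 0.40 for *Loxl2* to *Lox*. The cause was not tested. *Plod2* ranged from 1.42 to 2.21 and *Bmp1* from -1.45 to -0.37 over 17 refits. No paired analysis was possible because the labels link no WT sample to an MMP13KO sample.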
